A study of Mus musculus with 12 samples.

Results

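The enzymes described here carry ornithine, citrulline, arginine and the polyamines through the small intestine, and they were read in mice that were fed or had gone without chow for 12, 24 or 72 h. They were chosen by name, as every probe for carbamoyl-phosphate synthetase (Cps1), ornithine transcarbamylase (Otc), argininosuccinate synthetase (Ass1), argininosuccinate lyase (Asl), the arginases (Arg1 and Arg2), ornithine decarboxylase (Odc), S-adenosylmethionine decarboxylase (Amd1), spermidine synthase (Srm) and spermidine/spermine N1-acetyltransferase (Sat). Of these 10 genes, 6 had a probe under that name: Ass1, Asl, Odc, Srm and Sat with 1 probe each and Amd1 with 2, which makes 7 of the 20280 probes of the array. Cps1, Otc, Arg1 and Arg2 had no probe of that name and were not analysed here.

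All mice were males of the FVB strain aged 6 weeks, with no other treatment than the removal of chow, and they were kept in metabolic cages, with a warming lamp from 24 h on. The 4 groups were fed mice and mice fasted for 12, 24 or 72 h, with 3 arrays in each. Each array held Cy3-labelled RNA of the full-thickness small intestine of a pool of 2 mice, set against a Cy5-labelled reference of 6 fed mice, so that the spread between arrays is the spread between pools. For fed replicate 3 the source label of the reference names fewer mice than its labelling protocol does. The value given for each array is the log ratio, log2(Cy3/Cy5), which is 0 where the pool equals the fed reference, and a difference was called where limma gave an adjusted p under 0.05 over all probes of the array.

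The epithelium of the small intestine is the body's main maker of citrulline, which it builds from glutamine and proline by way of ornithine, with Cps1 and Otc in the mitochondria. Ass1 and Asl turn citrulline and aspartate into arginine, a pair of steps that in adults is mostly left to the kidney. Ornithine has another use, since Odc converts it into putrescine, the first and usually limiting step towards the polyamines, small cations that dividing and migrating epithelial cells need. Amd1 makes the donor of the propylamine group, Srm joins that group to putrescine to give spermidine, and Sat acetylates spermidine and spermine so that they can be exported or broken back down.

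All 7 enterocyte probes (Anpep, Apoa1, Apoa4, Mep1a, Vil, Cdx2 and Akp5) were well above background in Cy3 on all 12 arrays. So were 6 of 7 smooth muscle, 4 of 6 liver and 3 of 5 macrophage and myeloid probes. Over all spots, 58.8% to 99.3% passed on the single arrays, so this mark alone does not identify the tissue. Over the 12 arrays the median intensity ran from 166.5 to 295.5 in Cy3. In Cy5 it was between 124 and 142 on the fed and 72 h arrays and between 392 and 627 on the 12 h and 24 h arrays, whose files also have another column layout, so that in comparisons of 12 h or 24 h with fed or 72 h this difference cannot be told apart from fasting. On 12 h replicate 1, 5.42% of the spots were marked as outliers, against 0.212% to 1.22% on the other arrays. The 7 probes had no outlier spot and were well above background in Cy3 on all 12 arrays, except Asl on fed replicate 3 and the Amd1 probe A_65_P03814 on 72 h replicate 1. Most spots of each array passed too, and some members were dim. On 12 h replicate 1 the Cy3 signal was 286 for Asl and 290 for A_65_P03814, against an array median of 295.5. Srm was between 181.5 and 199 at 24 h, where the array medians were 166.5 to 171.5.

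Of the 6 genes, 4 had an entry in the RefSeq promoter table of the build GRCm38.p6, where Odc is listed as Odc1 and Sat as Sat1. The 250 bases before the annotated start are shown 5′ to 3′ on the gene's strand for Odc1, Amd1 and Sat1, the genes with an entry whose probes were called in any comparison below. Capitals mark the letters GGGCGG (the GC box) and TATAA (the core of the TATA box), searched on both strands.
Odc1: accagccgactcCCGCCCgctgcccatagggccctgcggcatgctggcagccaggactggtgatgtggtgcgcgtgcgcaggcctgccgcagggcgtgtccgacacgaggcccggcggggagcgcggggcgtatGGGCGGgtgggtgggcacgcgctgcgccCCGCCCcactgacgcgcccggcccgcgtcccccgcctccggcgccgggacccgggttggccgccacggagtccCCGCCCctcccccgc
Amd1: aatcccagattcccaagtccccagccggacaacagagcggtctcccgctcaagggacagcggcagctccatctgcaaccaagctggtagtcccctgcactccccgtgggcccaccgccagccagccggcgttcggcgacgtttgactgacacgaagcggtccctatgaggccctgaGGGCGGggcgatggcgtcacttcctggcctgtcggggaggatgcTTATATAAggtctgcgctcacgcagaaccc
Sat1: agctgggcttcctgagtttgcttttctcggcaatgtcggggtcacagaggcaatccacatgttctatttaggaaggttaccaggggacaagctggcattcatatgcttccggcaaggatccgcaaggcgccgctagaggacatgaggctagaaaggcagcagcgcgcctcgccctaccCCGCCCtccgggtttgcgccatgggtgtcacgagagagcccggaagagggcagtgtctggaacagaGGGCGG
These stretches are chr12:17544623-17544872 on the + strand, chr10:40302189-40302438 on the - strand and chrX:155216450-155216699 on the - strand.

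The GC box letters occurred 4 times before Odc1, 2 times before Sat1 and 1 time each before Amd1 and Ass1, and they occur in 32.7% of the 32851 promoters of the table. TATAA was found before Amd1 alone of the 4, on both strands in overlapping letters that end 22 bases before the start, against 22.8% of all promoters. Ass1 alone held CACGTG, the E-box, 30 bases before its start, against 6.02% of all promoters. CCAAT and TGACGTCA, with shares of 33.8% and 1.55% over all promoters, were found before none of the 4. The window before Odc1 was 80% G and C, that before Ass1 75.6%, that before Amd1 64.4% and that before Sat1 59.6%, against a median of 52.4% over all promoters.

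Odc, which starts the polyamine route, had the widest course. Its log ratio was 0.28, 0.40 and 0.53 in the fed pools, -0.71, 0.08 and -0.30 after 12 h, 0.42, 0.05 and 0.46 after 24 h, then 1.72, 0.84 and 1.55 after 72 h. The 72 h pools were above every other pool, and the 12 h pools lay below all fed pools. At 72 h Odc was higher than in the fed pools by 0.96 ± 0.24 (log2, SE), 1.95-fold, with an adjusted p of 0.0192 by limma. At 12 h the difference from the fed pools was -0.72 ± 0.24, with an adjusted p of 0.0685 by limma, which is short of the threshold, and at 24 h it was -0.10, with an adjusted p of 0.829.

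By log ratio the time points ranked 12 h, 24 h, fed and 72 h for Odc, with mean log ratios of -0.31 ± 0.40, 0.31 ± 0.23, 0.40 ± 0.12 and 1.37 ± 0.47 (SD, n = 3). From 12 h to 24 h the difference was 0.62 ± 0.24 (SE), with an unadjusted p of 0.0214 by limma. It was not called (adjusted p = 0.162 by limma), and the pools of these time points overlapped. The neighbours 24 h and fed differed by -0.10 ± 0.24 (SE), which was not called either (adjusted p = 0.829 by limma). In Cy3 alone the order was another one, fed, 12 h, 24 h and 72 h, with mean normalized log2 signals of 9.55, 9.73, 10.21 and 10.65, and there 24 h was called above fed (0.66, adjusted p = 0.0452 by limma). The 72 h pools exceeded the 12 h pools by 1.68 ± 0.24, 3.20-fold (adjusted p = 0.00124), and the 24 h pools by 1.06 ± 0.24, 2.09-fold (adjusted p = 0.0135), both by limma. The rise from 12 h to 72 h was called under all 12 other settings tried and without any single array, with values between 0.92 and 1.90 and between 1.48 and 1.95. The rise over fed was lost with median centring (0.66) and without moderation of the variance. It was also lost without fed replicate 1, 72 h replicate 1 or 72 h replicate 3, with values between 0.79 and 1.23 over the arrays left out and an adjusted p of up to 0.119. The rise over 24 h was lost without 24 h replicate 2, 72 h replicate 1 or 72 h replicate 3 (values between 0.89 and 1.33, adjusted p up to 0.0845). It was also lost in Cy3 alone (0.44) and without moderation of the variance.

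**Figure D1:**
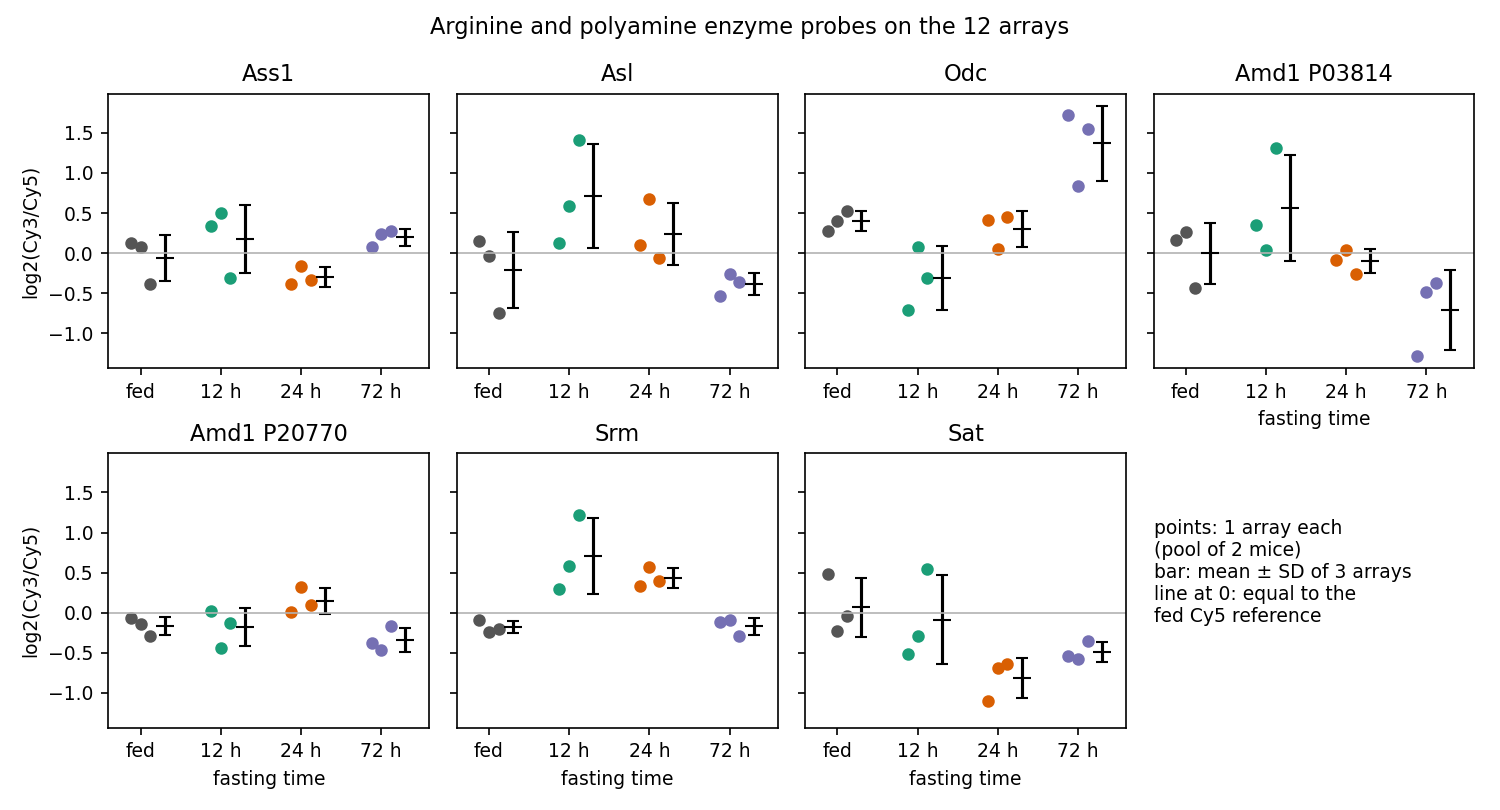
The log ratio, log2(Cy3/Cy5), of each of the 7 probes is plotted against fasting time, with 1 point per array and the mean ± SD of the 3 arrays as a bar. Odc stood highest in the 72 h pools, between 0.84 and 1.72, while Srm stood highest at 12 h and Sat lowest at 24 h.

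Amd1, which supplies the propylamine donor, was read by a pair of probes that differed in their course. The probe A_65_P03814 had log ratios of 0.16, 0.26 and -0.43 in the fed pools, 0.35, 0.03 and 1.31 at 12 h, -0.08, 0.04 and -0.26 at 24 h, then -1.28, -0.48 and -0.37 at 72 h. Its 72 h pools were below every 12 h and 24 h pool, and 1 fed pool lay among them. It fell by 1.27 ± 0.31 from 12 h to 72 h, 2.42-fold, with an adjusted p of 0.0186 by limma. That fall was lost without 72 h replicate 1, the array on which the probe was not well above background (-0.99, adjusted p = 0.106). It was also lost under 4 of 12 other settings. These were median centring (-1.09), Cy3 alone (-0.79), only the arrays of the 2 time points, and no moderation of the variance.

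Against the fed pools the same Amd1 probe was not called, with differences of 0.57 at 12 h (adjusted p = 0.239 by limma), -0.10 at 24 h (0.870) and -0.71 at 72 h (0.167). The other Amd1 probe, A_65_P20770, stayed between -0.46 and 0.32 on all 12 arrays and was called in none of the 6 comparisons. Between 12 h and 72 h it differed by -0.15 ± 0.17 (adjusted p = 0.593 by limma), where the first probe fell. The description of A_65_P20770 in the fed files is of an S-adenosylmethionine decarboxylase retrogene of another mouse species, so that its reading of mouse Amd1 is uncertain. The log ratios of the 2 probes had a Pearson correlation of 0.357 over the 12 arrays, given as a description.

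Srm, the spermidine synthase, was higher early in the fast. Its log ratio was -0.09, -0.24 and -0.20 in the fed pools, 0.30, 0.59 and 1.22 at 12 h, 0.34, 0.57 and 0.39 at 24 h, then -0.12, -0.09 and -0.29 at 72 h. All 12 h and 24 h pools were above all fed and 72 h pools, and those of fed and 72 h mice overlapped. Srm rose by 0.88 ± 0.20 at 12 h, 1.84-fold, with an adjusted p of 0.0168 by limma. At 24 h the difference from the fed pools was 0.61 ± 0.20 (adjusted p = 0.0691 by limma), and at 72 h it was 0.01, with a 95% interval from -0.42 to 0.43.

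The time points ranked fed, 72 h, 24 h and 12 h for Srm, with means of -0.17 ± 0.08, -0.17 ± 0.11, 0.43 ± 0.12 and 0.70 ± 0.47 (SD, n = 3). From 12 h to 72 h Srm fell by 0.87 ± 0.20 (adjusted p = 0.0144 by limma), while 12 h and 24 h (adjusted p = 0.466) and 24 h and 72 h (adjusted p = 0.0690) did not differ beyond the threshold. The rise at 12 h was not called without fed replicate 3 (0.87, adjusted p = 0.0583), and the fall to 72 h was not called without 72 h replicate 1 or 72 h replicate 3 (values between -1.07 and -0.61 over the arrays left out). Of the other settings, the rise was lost under 2 of 13 and the fall under 3 of 12. Both were lost with only the arrays of the 2 time points and without moderation of the variance, and the fall also with median centring (-0.63).

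Some smooth muscle and enterocyte markers were higher in log ratio at 12 h as well. Of 7 smooth muscle marker probes, 4 were called higher at 12 h than in the fed pools (Acta2 by 2.38, Actg2 by 1.80, Des by 1.73 and Smtn by 1.44) and none was called lower, where 10.9% of all probes were called. At 24 h 2 were called higher (Des and Smtn), and at 72 h, where Srm differed from fed by 0.01, 2 were called higher too (Des by 1.37 and Myh11 by 0.95). The mean log ratio of the 7 markers was between -0.48 and -0.02 in the fed pools, between 0.56 and 1.27 at 12 h, between 0.36 and 0.52 at 24 h and between -0.16 and 0.13 at 72 h, and none of the 7 was without signal, as each was well above background on at least some arrays. On fed replicate 1 and 12 h replicate 1 the mean, like the sum given below, covered 6 of the 7. Over the 12 arrays this mean had a Pearson correlation of 0.956 with Srm and of 0.888 with Asl, given as a description over arrays that share their labelling and scanning. The summed normalized Cy3 level of the 7 markers was between 6200 and 7940 in the fed pools, between 7290 and 9710 at 12 h, between 6780 and 8180 at 24 h and between 7520 and 8240 at 72 h, ranges that overlap with one another. Of the 7 enterocyte probes, 2 were called higher at 12 h, Anpep by 3.43 (adjusted p = 0.0162 by limma) and Mep1a by 0.69 (adjusted p = 0.0353), with a median difference of 0.69 over the list. Neither was called in Cy3 alone, with 1.30 for Anpep (adjusted p = 0.0811 by limma) and 0.67 for Mep1a (0.0559). The Cy5 reference of Anpep differed by -2.13 (adjusted p = 0.0718 by limma). The other 5 enterocyte probes were not called at 12 h. Apoa4 was at -0.36, Vil at -0.02, Akp5 at 0.10, Cdx2 at 0.73 and Apoa1 at 1.44. The Cy3 sum of all 7 was between 81900 and 134000 in the fed pools and between 113000 and 121000 at 12 h. The part of smooth muscle or of enterocytes in the Srm and Asl values was not tested, and in RNA of whole intestine fewer cells of a type and less RNA per cell cannot be told apart.

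**Figure D2:**
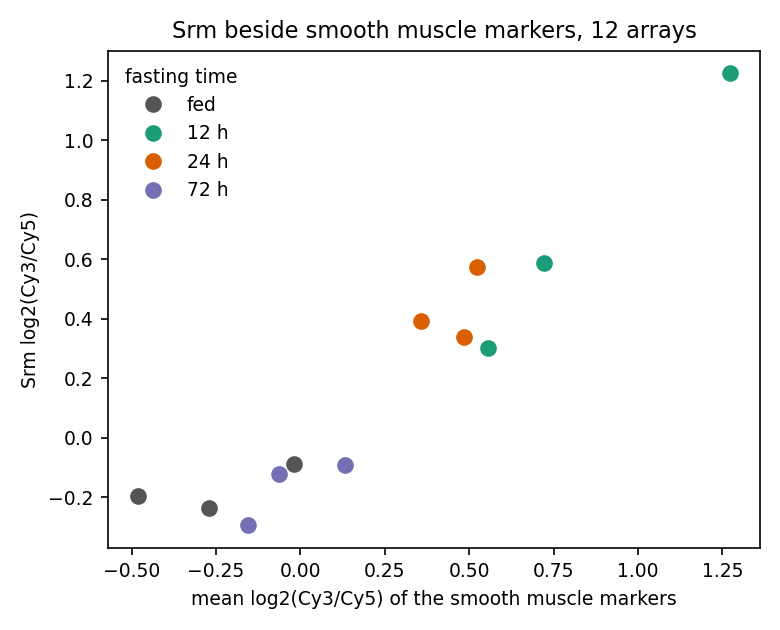
The log ratio of Srm is plotted against the mean log ratio of 7 smooth muscle marker probes, with 1 point for each of the 12 arrays coloured by fasting time. On fed replicate 1 and 12 h replicate 1 the mean is over 6 of the 7. The array of 12 h replicate 3 is at the top right, with 1.22 for Srm and 1.27 for the markers, and the fed arrays are at the bottom left.

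Sat, the acetyltransferase that opens polyamine breakdown, was lowest at 24 h. Its log ratio was 0.48, -0.23 and -0.04 in the fed pools, -0.51, -0.29 and 0.55 at 12 h, -1.10, -0.69 and -0.64 at 24 h, then -0.54, -0.58 and -0.35 at 72 h. The 24 h pools were below all other pools, and the 72 h pools were below all fed pools. Sat fell by 0.88 ± 0.26 at 24 h, 1.84-fold, with an adjusted p of 0.0430 by limma. This call was lost under 7 of the 13 other settings and without any single fed, 24 h or 72 h array, 9 of the 12 arrays, with values between -1.19 and -0.73 over the settings and between -1.03 and -0.67 over the arrays left out. The other differences from the fed pools were -0.16 at 12 h (adjusted p = 0.719 by limma) and -0.56 at 72 h (0.187).

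Ass1 and Asl, which take citrulline on to arginine, were not called against the fed pools at any time point. For Ass1 the log ratio was 0.12, 0.08 and -0.38 in the fed pools, 0.34, 0.50 and -0.31 at 12 h, -0.39, -0.16 and -0.34 at 24 h, then 0.08, 0.24 and 0.28 at 72 h. The fed pools overlapped with those of every fasting time. Its differences were 0.24 at 12 h, with a 95% interval from -0.21 to 0.68, -0.23 at 24 h, from -0.68 to 0.21, and 0.26 at 72 h, from -0.19 to 0.70.

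For Asl the log ratio was 0.15, -0.03 and -0.75 in the fed pools, 0.13, 0.59 and 1.41 at 12 h, 0.10, 0.67 and -0.06 at 24 h, then -0.54, -0.26 and -0.36 at 72 h. The pools of 12 h and of the fed mice overlapped, whereas all 72 h pools were below all 12 h and 24 h pools. The difference from fed was 0.92 ± 0.30 at 12 h, with an adjusted p of 0.0650 by limma. From 12 h to 72 h Asl fell by 1.10 ± 0.30, 2.14-fold (adjusted p = 0.0330 by limma), a call lost under 8 of 12 other settings and without 12 h replicate 2, 12 h replicate 3 or any 72 h array, with values between -1.39 and -0.75 over the arrays left out. In the fed files this probe is named 2510006M18Rik.

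Set against the whole array, the member probes were called about as often as other probes in most comparisons. At 12 h 1 of the 7 was called, Srm, where 10.9% of all probes were, and at 24 h 1 was called, Sat, where 10.1% were. At 72 h 1 was called, Odc, where 10.6% of all probes were. The pools of the 2 groups did not overlap for 2 of the 7 at 12 h, where they did not for 30.8% of all probes, for 3 at 24 h (40.4% of all probes) and for 2 at 72 h (41.8%). The median difference of the 7 from the fed pools was 0.24, -0.10 and -0.17 at 12, 24 and 72 h, beside medians of -0.02, 0.02 and 0.01 over all probes, and these 3 comparisons share the fed arrays.

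Between 12 h and 24 h limma called none of the 7, where 2.92% of all probes were called, and 4 of the 7 had an unadjusted p under 0.05, where 21% of all probes did. Between 12 h and 72 h it called 4 of the 7, Odc higher and Srm, Asl and the Amd1 probe A_65_P03814 lower, against 10.8% of all probes. Between 24 h and 72 h it called Odc, against 10.6% of all probes, although for all 7 probes the 72 h pools did not overlap with the 24 h pools, as for 41.9% of all probes. Among all these calls of member probes, only that of Odc between 12 h and 72 h held under every setting tried.

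**Figure D3:**
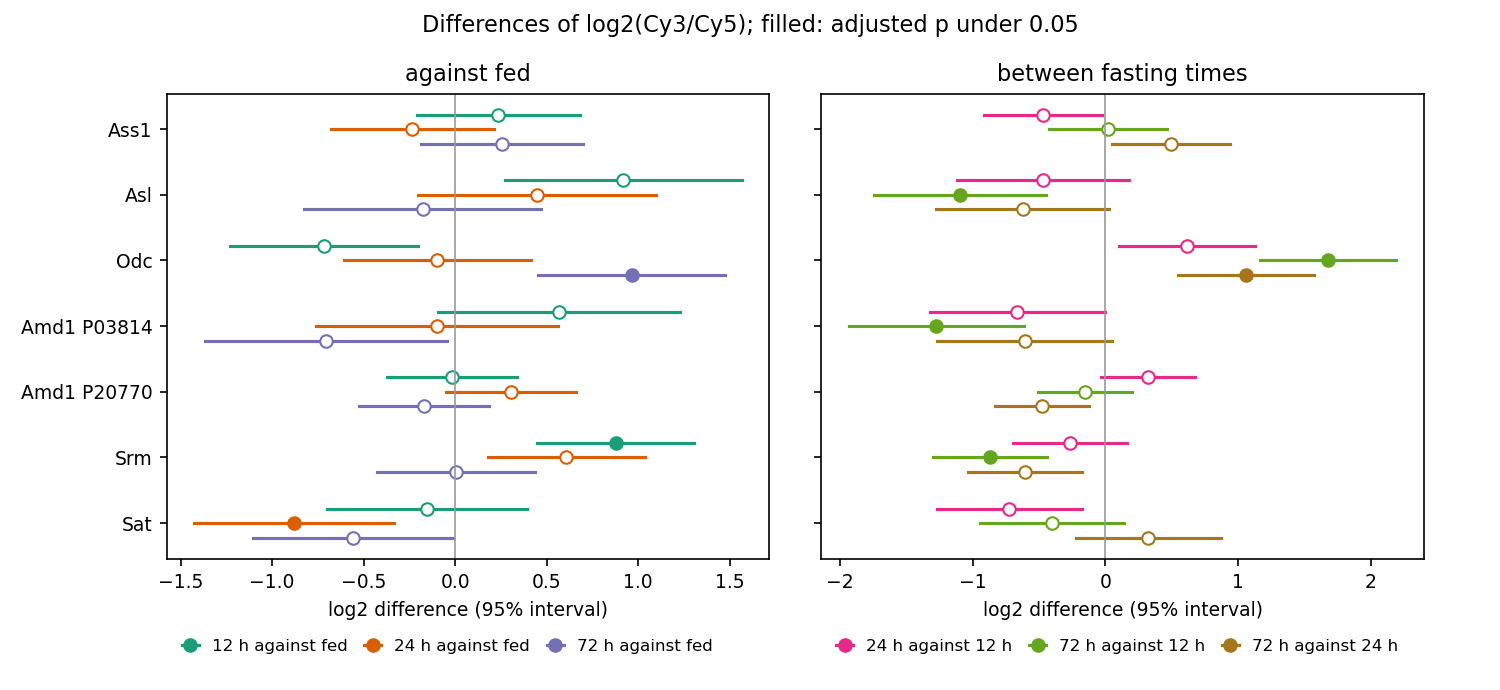
The difference in log ratio (log2) with its 95% interval is shown for each of the 7 probes, against the fed pools on the left and between fasting times on the right, with filled points where limma called it. Odc is called at 72 h against fed (0.96), 12 h (1.68) and 24 h (1.06), Srm at 12 h (0.88) and Sat at 24 h (-0.88).

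Each channel was also fitted by itself. The Cy5 reference was meant to be the same on all arrays, yet in Cy5 alone 21.9% of all probes were called between the 12 h and the fed arrays, 20.4% between the 24 h and the fed arrays and 0% between the 72 h and the fed arrays. Of the 7 probes, Cy5 alone was called for Asl (-0.74), Odc (0.89) and Sat (-0.47) at 12 h, for Asl (-0.63), Odc (0.76) and the Amd1 probe A_65_P20770 (-0.58) at 24 h, and for none at 72 h.

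For Odc the Cy3 signal differed from the fed pools by 0.18 at 12 h (adjusted p = 0.639 by limma), by 0.66 at 24 h (0.0452) and by 1.10 at 72 h (0.00735), so that the low log ratio at 12 h stood beside a higher Cy5 signal and not beside a lower Cy3 signal. For Srm at 12 h the Cy3 signal was higher by 0.77 (adjusted p = 0.00916 by limma) with a Cy5 difference of -0.11. At 24 h the Cy3 difference of Srm was 0.25 (adjusted p = 0.315 by limma) and its Cy5 difference -0.36. For Sat at 24 h the Cy3 signal was lower by 0.92 (adjusted p = 0.0140 by limma) with a Cy5 difference of -0.04. At 12 h the Cy3 difference of Sat was -0.63 (adjusted p = 0.0895 by limma) beside its Cy5 difference of -0.47. For Asl at 12 h the Cy3 difference was 0.18 and the Cy5 difference -0.74. In Cy3 alone the difference between 12 h and 72 h was called for Odc (0.92, adjusted p = 0.0115 by limma) and Srm (-0.79, adjusted p = 0.00685), and not for Asl (-0.38) or the Amd1 probe A_65_P03814 (-0.79). The Cy5 reference differed for Odc too, by -0.76 between 12 h and 72 h (adjusted p = 0.00958 by limma) and by -0.62 between 24 h and 72 h (adjusted p = 0.0128), and in the latter comparison the Cy3 difference was 0.44 (adjusted p = 0.210). For Asl the Cy5 reference differed by 0.71 between 12 h and 72 h (adjusted p = 0.0492 by limma).

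**Figure D4:**
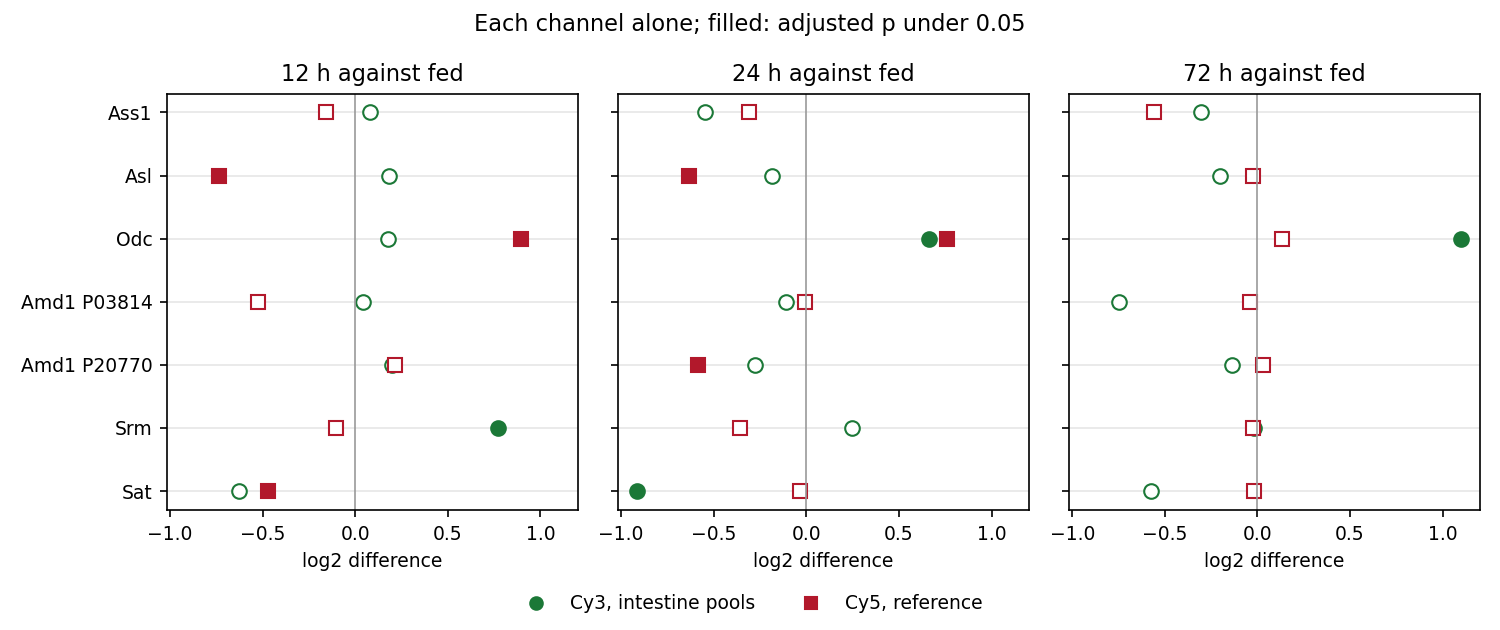
The difference from the fed arrays (log2) is plotted for the Cy3 channel of the intestine pools (circles) and the Cy5 channel of the reference (squares), each fitted alone, with filled symbols where limma called it. At 12 h the Cy5 reference moved for Odc by 0.89 and the Cy3 signal by 0.18, whereas at 72 h Cy3 moved by 1.10 and Cy5 by 0.13.

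Odc protein is held down by antizyme, which binds it and sends it to the proteasome, and antizyme is itself bound by the antizyme inhibitor, a relative of Odc without enzyme activity. Of these genes Oaz1, Oaz2 and the inhibitor Oazin (now Azin1) had a probe. Oaz1 had log ratios of 0.20, 0.04 and 0.46 in the fed pools, -0.21, -0.49 and -0.30 at 12 h, -0.67, -0.52 and -0.34 at 24 h, then -0.89, -0.63 and -1.16 at 72 h. Every fasted pool was below every fed pool. Oaz1 fell by 0.74 ± 0.18 at 24 h (adjusted p = 0.0202 by limma) and by 1.13 ± 0.18 at 72 h (adjusted p = 0.00151), and at 12 h the difference was -0.57 (adjusted p = 0.0556). The 24 h call was lost without fed replicate 1 or 3 or without 24 h replicate 1 or 2, with values between -0.84 and -0.63 over the arrays left out.

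Oazin had log ratios of 0.29, 0.08 and 0.49 in the fed pools, 0.81, -0.82 and -0.24 at 12 h, -0.48, -0.16 and -0.46 at 24 h, then -1.76, -1.43 and -1.41 at 72 h. Its 72 h pools were below all others. Oazin fell by 1.82 ± 0.30 at 72 h, 3.53-fold, with an adjusted p of 0.00185 by limma. Oaz2 was not called at any time, with a difference of 0.26 at 72 h (adjusted p = 0.540 by limma). The 72 h falls of Oaz1 and Oazin kept their call under all 13 other settings and without any single array.

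Oat, which makes the ornithine that Odc and Otc use, was the pathway gene with the largest difference at 72 h. Its log ratio was -0.24, -0.39 and 0.35 in the fed pools, -0.94 and -0.77 on the 2 arrays of 12 h with a value, -0.70, -0.36 and -0.65 at 24 h, then -2.30, -1.74 and -1.93 at 72 h. All 72 h pools were below all other pools. Oat fell by 1.90 ± 0.21 at 72 h, 3.73-fold (adjusted p = 0.00026 by limma), under all 13 other settings and without any single array.

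**Figure D5:**
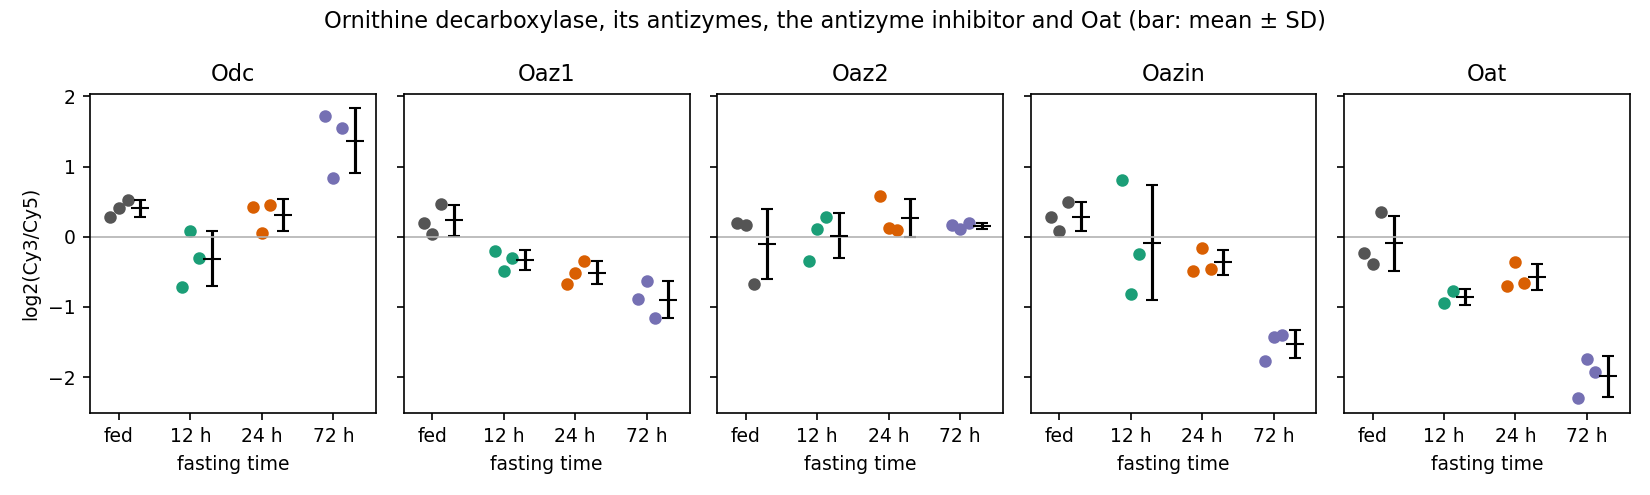
Log ratios of Odc, the antizymes Oaz1 and Oaz2, the antizyme inhibitor Oazin and ornithine aminotransferase (Oat) are plotted by fasting time, with 1 point per array and the mean ± SD as a bar (2 arrays for Oat at 12 h). At 72 h Odc was between 0.84 and 1.72, while Oaz1 was between -1.16 and -0.63, Oazin between -1.76 and -1.41 and Oat between -2.30 and -1.74.

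Odc is known to be high in dividing cells, and 3 of 14 probes for markers of crypt proliferation were called lower at 72 h (Ccna2 by -0.66, Cdc2a by -0.98 and Pcna by -1.03), where 10.6% of all probes were called. None of the 14 was called higher and 11 were not called, with a median difference of -0.28. The summed normalized Cy3 level of the 14 was between 3370 and 4420 in the fed pools and between 2680 and 2840 at 72 h. The summed Cy3 level of the liver markers was between 943 and 1040 in the fed pools and between 1230 and 1650 at 72 h. There 1 of 6 liver probes was called higher, Alb1 by 1.29. The other 5 were not called, and the median difference of the list was -0.07. The part of either in the values was not tested.

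Of 64 other symbols listed for these pathways, 29 had a probe, 30 probes in all. At 12 h 2 were called higher and 4 lower, beside 10.9% of all probes called. At 24 h 2 were called higher and 1 lower, beside 10.1% of all probes, and at 72 h 2 higher and 4 lower, beside 10.6%. The median differences of the 30 were 0.15, -0.02 and -0.19. Between 12 h and 72 h 1 was called higher and 8 lower, beside 10.8% of all probes. In the group of ornithine, glutamate and proline routes, 5 probes, 2 were called higher and 1 lower at 72 h, and in the group that controls ornithine decarboxylase, 3 probes, 2 were called lower. The 5 probes for methionine, hypusine and further polyamine enzymes (Ahcy, Mat1a, Sms, Eif5a and Eif5a2) were called in none of the 6 comparisons, with Sms, the spermine synthase, at -0.41, -0.02 and -0.29 from the fed pools.

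Among the routes to ornithine and glutamate, Asns, which makes asparagine and uses aspartate as Ass1 does, rose by 1.65 ± 0.22 at 12 h, 3.15-fold (adjusted p = 0.00196 by limma). Pycs (now Aldh18a1), the pyrroline-5-carboxylate synthase that feeds ornithine and proline synthesis, rose by 1.25 ± 0.34 at 24 h (adjusted p = 0.0357), a call lost under 6 of 13 settings, with values between 0.41 directly against the reference and 1.27, and without any single fed or 24 h array or 72 h replicate 1 (values between 1.14 and 1.31). Prodh, the proline oxidase at the other entry to the same intermediate, rose by 0.63 ± 0.17 at 72 h (adjusted p = 0.0276 by limma), a call lost with median centring (0.46) and without fed replicate 1 or 2 or any single 72 h array. The call was also lost with a block for replicate number (adjusted p = 0.0522 by limma). Glud (now Glud1), glutamate dehydrogenase, fell by 0.99 ± 0.21 at 12 h, with 2 of the 3 arrays measured, and rose by 0.93 ± 0.19 at 72 h (adjusted p = 0.0135 and 0.00681 by limma). The rise of Glud at 72 h shrank to 0.22 with median centring (adjusted p = 0.651), and its fall at 12 h was not called in Cy3 alone (-0.44) or without fed replicate 3 or 12 h replicate 3. With only the arrays of the 2 time points neither that fall nor the rise of Asns was called (adjusted p = 0.104 and 0.0795 by limma).

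Of the transport genes, Slc25a13, an aspartate/glutamate carrier of the mitochondria, fell by 0.60 ± 0.13 at 12 h (adjusted p = 0.0158 by limma), a call lost without fed replicate 1. The ornithine carrier Slc25a15 was called lower at 12 h by its probe A_65_P17836 (-0.94, adjusted p = 0.0164, 2 of the 3 arrays measured) and was at 0.49 by its probe A_65_P04703, which was not called, and the call was lost in Cy3 alone (-0.50) and without fed replicate 1 or 12 h replicate 3. With only the arrays of the 2 time points neither that call nor that of Slc25a13 held. Slc7a3, a carrier of cationic amino acids, rose by 0.68 at 12 h (adjusted p = 0.0193 by limma), and Slc7a8, a carrier of neutral amino acids, rose by 0.98 at 24 h (adjusted p = 0.0268). In Cy3 alone neither rise was called (0.28 and 0.49), and with median centring neither was (0.49 and 0.55). That of Slc7a3 was also lost with no background correction and with only the arrays of the 2 time points. That of Slc7a8 was also lost without moderation. Leaving out fed replicate 1 ended both calls, and that of Slc7a8 also ended without fed replicate 2 or any single 24 h array. Gatm, which uses arginine to start creatine synthesis, fell by 0.90 ± 0.22 at 72 h (adjusted p = 0.0165 by limma), a call lost without fed replicate 3 or 72 h replicate 1, in Cy3 alone (-0.69), without moderation, and with no background correction (-0.58). It was also called lower at 12 h (-0.75, adjusted p = 0.0418 by limma), where its fed and fasted pools overlapped. Nos2 was not called at any time and was not well above background in the fed pools.

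For the genes called against the fed pools, Odc, Srm and Sat, the probes with the most similar course were sought among 6113 probes with a gene symbol, by Pearson correlation of log ratios over 11 or 12 arrays, as a description. Closest to Odc were Kcnq1 (0.966), Erbb2ip (0.958) and Timp1 (0.942). Closest to Srm were Smtn, a smooth muscle protein (0.986), Col6a1, a collagen chain (0.975), and Pigq (0.962). Closest to Sat were Mrpl27 (0.958) and Rpl9 (0.951), ribosomal proteins of the mitochondrion and the cytosol, and Ppp1cc (0.917). Among the members themselves, Srm and Asl had the closest course (0.897), Asl and the Amd1 probe A_65_P03814 were at 0.830, and Odc and that Amd1 probe ran opposite (-0.797).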

How the data were processed

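For the 12 arrays, each with 2 dyes, the authors deposited scanner tables from Feature Extraction 6.1.1. These give median intensities of each spot and of its surroundings in both channels, without correction or normalization. The deposited value table holds log10 ratios of Cy3 over Cy5, treated as a score because the decimal point of some cells was moved. It served as an alternative after rescaling.

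Intensities were background-corrected (normexp, offset 50) and the 24 channels quantile normalized together. Controls, 91 retired spots and outlier spots were left out, which left 20280 probes. Using R 4.3.3 and limma 3.58.1, a mean per time point was fitted to the log ratios of all 12 arrays, with eBayes moderation and Benjamini-Hochberg adjustment. The code was tested on simulated data. Precision is limited by the number of arrays. The authors' own analysis of variance was not run.

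All member probes are named. Of 64 other symbols, probes called with non-overlapping pools are named, at most 8 per time point. The members and lists were chosen with earlier results of these data known. Plots were made with pandas 2.3.3 and matplotlib 3.10.9 under Python 3.11.15. Promoters are RefSeq's (GRCm38.p6).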

Additional observations from a re-analysis of the deposited data

Results flagged for a closer look

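For 5 results of the member probes the change from fed differed between fasting times by limma's test of the difference itself. From 12 h to 72 h the difference was 1.68 for Odc (adjusted p = 0.00124), -0.87 for Srm (0.0144), -1.27 for the Amd1 probe A_65_P03814 (0.0186) and -1.10 for Asl (0.0330). From 24 h to 72 h it was 1.06 for Odc (0.0135). The Cy5 reference also differed for Odc in both comparisons and for Asl from 12 h to 72 h. Groups of 3 arrays were too small to test for single outlying arrays.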

How the results depend on the processing

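The settings tried were another background correction, scaling, channel, filter, variance or call rule, the deposited ratios, fewer arrays, a direct test against the reference, and each array left out. Where a call was lost or gained the cause was not tested, and scan date was not run because the files hold none. The counts in this section stand without the share of all probes under the same setting, except for member probes in Cy3 alone. They are therefore no result about these probes. With an unadjusted p under 0.01 and 1.4-fold the member probes called were 3 at 12 h, 2 at 24 h and 2 from 24 h to 72 h. With median centring they were 2 at 12 h, 0 at 72 h and 1 from 12 h to 72 h. With only the arrays of the 2 time points they were 0 at 12 h, 2 at 24 h, 1 from 12 h to 72 h and 5 from 24 h to 72 h. Without moderation they were 0 at 12, 24 and 72 h, 1 from 12 h to 72 h and 0 from 24 h to 72 h. In Cy3 alone they were 2 at 24 h (24.6% of all probes) and 2 from 12 h to 72 h (18.2%). From 24 h to 72 h they were 0 in Cy3 alone (16.4%). Directly against the reference they were 2 at 12 h and 2 at 72 h. With plain subtraction 0 were called at 24 h. Between 24 h and 72 h 2 were called with no background correction, 3 with loess, 3 with loess then Aquantile and 2 with the deposited ratios. Leaving out single arrays gave 0 to 2 at 12 h, 0 to 2 at 24 h, 0 to 2 at 72 h, 0 to 1 from 12 h to 24 h, 1 to 4 from 12 h to 72 h and 0 to 4 from 24 h to 72 h.

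For the other pathway probes, an alternative chosen after seeing the data, the counts were 10 at 12 h with an unadjusted p under 0.01 and 1.4-fold, 0 at 12 h and 7 at 24 h with only the arrays of the 2 time points, 6 at 24 h in Cy3 alone, and 13, 6 and 10 at 12, 24 and 72 h directly against the reference. Leaving out single arrays gave 2 to 13 at 12 h, 0 to 6 at 24 h and 4 to 9 at 72 h.

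Directions turned only for differences that were not called. In Cy3 alone these were Odc at 12 h (0.18) and 24 h (0.66), Asl at 24 h (-0.19), Ass1 at 72 h (-0.30) and from 12 h to 72 h (-0.38), Srm at 72 h (-0.020), Sat from 12 h to 72 h (0.052), and A_65_P20770 at 12 h (0.20), at 24 h (-0.27), from 12 h to 24 h (-0.47) and from 24 h to 72 h (0.14). A_65_P20770 at 12 h also turned with loess (0.081), loess then Aquantile (0.081) and the deposited ratios (0.12), Srm at 72 h with median centring (-0.049), the deposited ratios (-0.004267) and directly against the reference (-0.17), Odc at 24 h directly against the reference (0.31), and Ass1 from 12 h to 72 h with no background correction (-0.069). With single arrays left out the ranges that crossed 0 were -0.31 to 0.035 for A_65_P03814 at 24 h, -0.12 to 0.11 for A_65_P20770 at 12 h, -0.45 to 0.0031 for Asl at 72 h, -0.22 to 0.18 for Ass1 from 12 h to 72 h, -0.17 to 0.032 for Odc at 24 h, -0.47 to 0.058 for Sat at 12 h and -0.034 to 0.068 for Srm at 72 h.

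Pools share replicate numbers but not mice. Same-numbered pools correlated between -0.286 and 0.128, and with the replicate block the member probes called at 24 h were 0. The other 5 counts stayed within 1.5 times. Signal over background limits the dimmer probes: Asl, Srm and both Amd1 probes were at most 9.81 times their background in Cy3. Ass1 was between 3.24 and 10.7 times its background. In Cy5, Asl, Srm and A_65_P03814 were between 1.74 and 2.83 times theirs.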

Other observations

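A pair of probes without a gene symbol are described in the fed files as similar to these enzymes. C0834D12-3, described as like an exon of the Ass gene and not well above background in the fed pools, differed from them by 0.32 at 12 h, 0.13 at 24 h and 0.21 at 72 h and was not called. AI836219, described as like Amd1, differed by -0.25, 0.01 and 0.17 and was not called.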
